A study of Caenorhabditis elegans with 36 samples.

Results

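Strain differences in whole adult worms fed krill oil were examined at adult day 6, in 3 libraries labelled BY273 against 3 labelled N2, which are 6 of the 36 libraries of the study. The members were chosen by their labels alone (strain, krill oil, day 6). BY273 carries an integrated pair of transgenes, green fluorescent protein and α-synuclein, each driven in dopaminergic neurons by the dat-1 promoter, and it served as the model of Parkinson's disease (PD). N2 is the wild type strain. The genotype entry of the labels reads wild type for BY273 as well. L4 hermaphrodites were placed on plates with krill oil at 0.5 μl per ml and collected at day 6, without FdUrd and with daily washing and filtering. Further libraries cover both strains without krill oil at day 1, 3 and 6 and with krill oil at day 1 and 3, so that 12 groups hold 3 libraries each. RNA was taken from whole worms, which hold few dopaminergic neurons among all other cells.

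C. elegans hermaphrodites have a small fixed set of dopaminergic neurons, and their loss is used to model PD. Dopamine is made by tyrosine hydroxylase (cat-2) and an aromatic amino acid decarboxylase (bas-1), with a cofactor whose first step is GTP cyclohydrolase (cat-4). It is loaded into vesicles by cat-1 and taken back into the neuron by the transporter dat-1. An integrated transgene and the region linked to it stay with a strain through all diets and ages, so that genes that differ between 2 strains at every age can serve as markers of the strain.

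Before any strain difference is read at day 6, the strain labels were set against such marker genes, and at day 6 the genes went against the labels. T23G5.11, a non-coding RNA gene on chromosome III from 9242530 to 9242726 (WBcel235), ends 248 bases before the start of dat-1 (III, 9242975 to 9246802). In the libraries labelled BY273 its counts were 126 to 157 in controls at day 1 and 234 to 269 in controls at day 3. With krill oil they were 55 to 130 at day 1 and 158 to 307 at day 3. In the libraries labelled N2 at these ages it had 0 counts, except for 13 counts in control day 3 replicate 3. At day 6 this was turned around. With krill oil T23G5.11 had 0 counts in each of the 3 libraries labelled BY273, and 110, 127 and 140 counts in those labelled N2. Controls at day 6 had 0 counts in each library labelled BY273 and 264 to 417 in those labelled N2. On krill oil at day 6 its pooled level was thus at least 130-fold higher under the N2 label, taking 3 counts over the 3 libraries at 0 as the floor. Reads of the transgenes themselves were not analysed here.

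The same turn was seen in protein-coding genes far from dat-1, as the plot of marker genes over all libraries shows. C27D8.3, on chromosome IV from 12706700 to 12711744, stood at 13.8, 12.7 and 12.5 CPM (normalised counts scaled to a common library size) in the libraries labelled BY273 on krill oil at day 6. In those labelled N2 it stood at 135.3, 127.9 and 134.1 CPM. This was a log2 fold change (labelled BY273 minus labelled N2) of -3.34 ± 0.08 (SE), with an adjusted p of 9.35e-09 by edgeR, while at day 1 and day 3 on krill oil its log2 fold changes were 3.25 and 3.13. B0511.11, on chromosome I from 10648600 to 10654237, likewise had 3.79 to 4.07 CPM under the BY273 label and 27.0 to 28.3 CPM under the N2 label. hmg-20, an HMG-box gene on chromosome I (12535314 to 12537671), went the other way, with 34.1 to 40.4 CPM under the BY273 label and 7.13 to 8.59 CPM under the N2 label. For each of these genes the 3 libraries of a label lay close together and the labels did not overlap. One younger library also stood apart, since N2 control day 3 replicate 3 had 1325 counts of C27D8.3 against 384 and 410 in the others of its group.

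**Figure D1:**
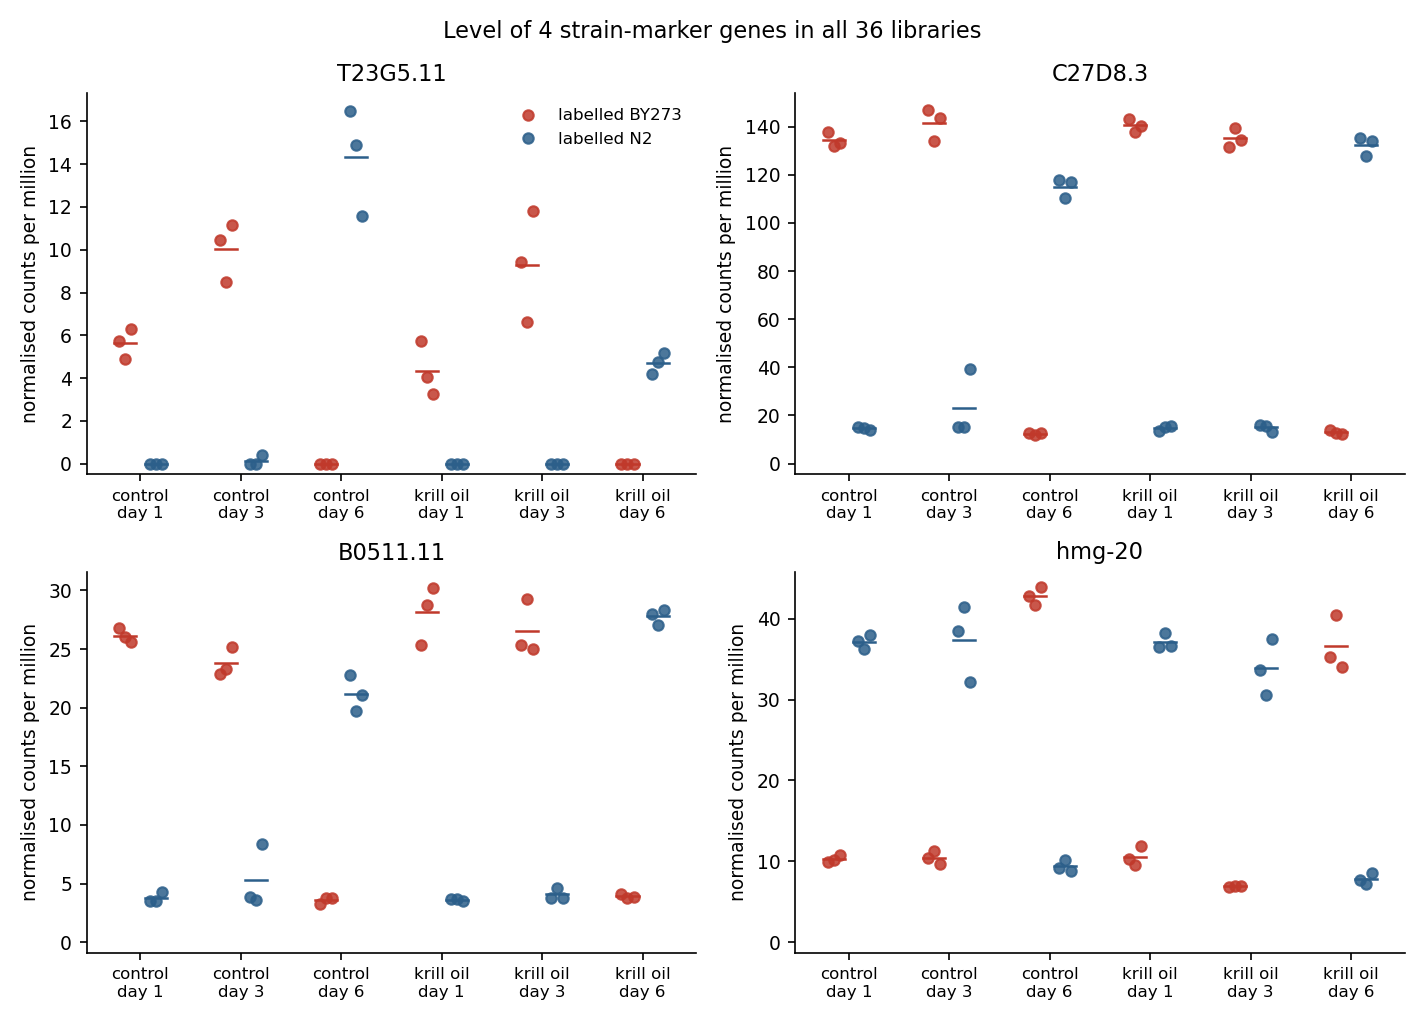
Normalised counts (CPM) of T23G5.11, C27D8.3, B0511.11 and hmg-20 in each of the 36 libraries, by diet and day; points are libraries, red labelled BY273 and blue labelled N2, and short lines are group means. At day 1 and 3 T23G5.11 is found under the BY273 label, and at day 6 on both diets it is at 0 counts there and at 110 to 417 counts under the N2 label.

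Across the transcriptome 119 genes passed adjusted p under 0.05 in 1 direction in all 4 strain comparisons at day 1 and 3 (both diets), 70 of them higher and 49 lower under the BY273 label. This set was chosen after its values were seen and shares no library with the day 6 comparisons. On krill oil at day 6, 107 of the 119 were tested, and 101 had the opposite sign. Called genes (adjusted p under 0.05) made up 1.19% of all genes tested in this comparison, and among the marker genes 44 were called in the opposite direction and 0 in the same direction. Of the 44, 28 also passed a log2 fold change of 1. The 70 genes higher under the BY273 label at day 1 and 3 had a median log2 fold change of 0.96 at day 1 and 0.94 at day 3 on krill oil, and of -0.77 at day 6. The 49 genes lower under that label had medians of -1.96 at day 1 and -1.98 at day 3 on krill oil. At day 6 the median was 0.25, but only over the 37 of them that were tested, so the sets differ. Of these 37, 4 were called. Some of these, such as spch-1 (sperm chromatin) and nsph-3.2, had only 3.40 and 4.65 CPM under the N2 label at day 6 and 4.499 and 5.53 CPM under the BY273 label, with adjusted p of 0.68 and 0.845. Without N2 control day 3 replicate 3 the set held 124 genes, of which 106 of 112 tested had the opposite sign, 46 were called opposite and 0 the same. In controls at day 6, where 81.5% of all genes tested were called, 80 of 93 tested had the opposite sign, 75 were called opposite and 8 the same. No gene was called in 1 direction in all 6 strain comparisons.

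**Figure D2:**
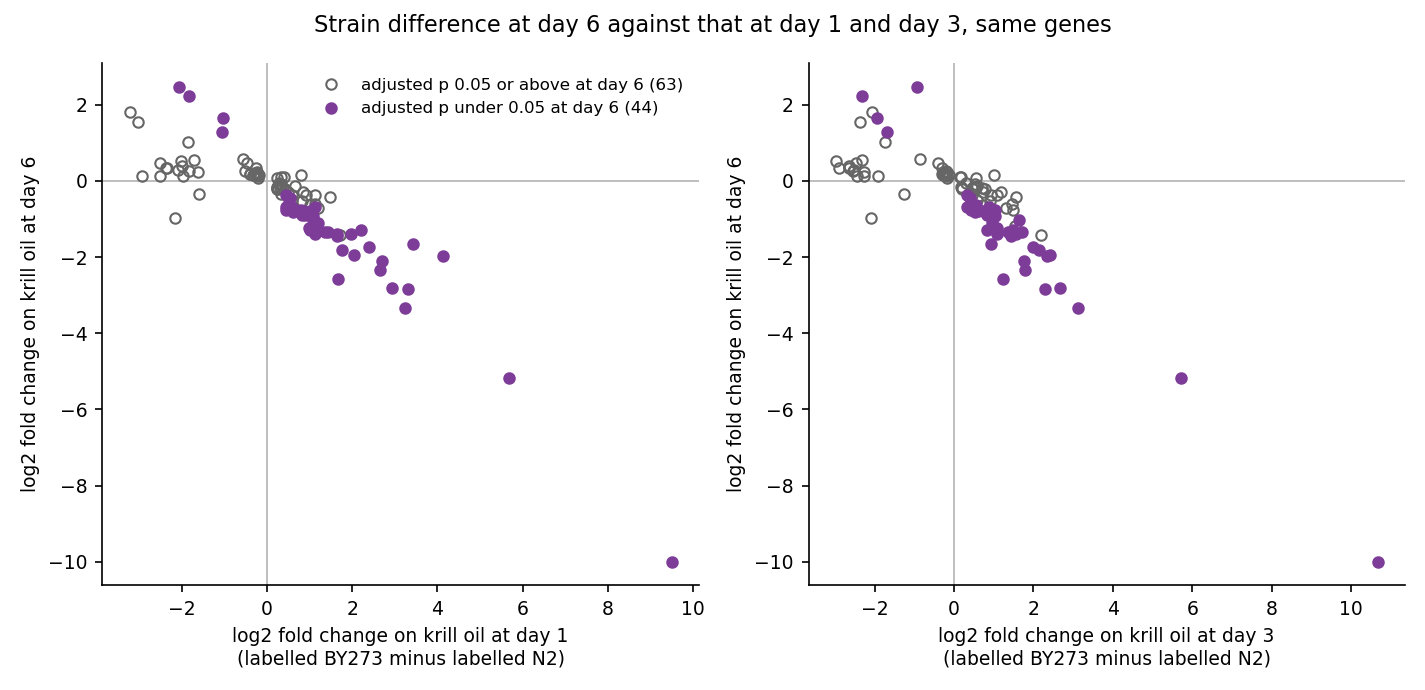
Log2 fold change (labelled BY273 minus labelled N2) on krill oil at day 6 against that on krill oil at day 1 (left) and day 3 (right) for the 107 marker genes tested at day 6; filled points are the 44 genes called at day 6. Most points lie at the upper left and lower right, where the sign at day 6 is opposite to that in younger animals.

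Library by library, 20 genes that were more than 2-fold higher under the BY273 label in all 4 younger comparisons were compared with the mean levels of the younger libraries of each label. In the libraries labelled BY273 on krill oil at day 6, 3, 0 and 1 of the 20 were nearer to the younger BY273 mean, and in those labelled N2 20, 20 and 19 were. In younger libraries these counts were 19 to 20 under the BY273 label and 0 to 4 under the N2 label, the 4 being N2 control day 3 replicate 3. The 20 genes were chosen by their values in these younger libraries, so that this split was largely set by the choice. The same was done for 16 genes more than 2-fold lower under the BY273 label, and these did not set the day 6 labels apart on krill oil. Both sets hold only genes high enough to be tested on krill oil at day 6. C48B4.12, fipr-17 and F26D2.16 were also more than 2-fold lower in all 4 younger comparisons but were not tested there. The 16 thus lean to genes that were well counted at day 6. In the libraries labelled BY273 2, 4 and 4 of the 16 were nearer to the younger BY273 mean and in those labelled N2 6, 5 and 6, so that most were nearer to the younger N2 mean under both labels. In controls at day 6 14 of the 16 were nearer to the BY273 mean in each library labelled BY273 and 16 in each labelled N2. In younger libraries there were 9 to 16 under the BY273 label and 0 to 8 under the N2 label, and the 16 genes were likewise chosen by these libraries. The diet labels were looked at by the signs of group comparisons, not library by library. Of 260 genes called in 1 direction for krill oil in all 4 younger comparisons, 195 of 255 kept their sign at day 6 under the BY273 label. Under the N2 label 218 of 258 did. Called the same and the opposite way were 135 and 28 under the BY273 label and 198 and 21 under the N2 label. The share of all genes called for krill oil at day 6 was not worked out, so these calls have no background beside them. All directions below are those of the labels, and each is given with this conflict standing: a gene called lower was lower in the libraries labelled BY273. No library was moved to another group.

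The 6 libraries held 23008956 to 28569727 counts, within the range of the series (16488713 to 34605080). The share of ribosomal RNA was 6.54% to 12.9% under the BY273 label and 10.4% to 13.6% under the N2 label. The labelled groups were hardly apart as wholes. Correlations of log2 CPM between libraries were 0.988 to 0.991 within the BY273 label, 0.994 to 0.995 within the N2 label and 0.988 to 0.991 between the labels, a description over genes. The median SD of a gene was 0.173 log2 CPM in the libraries labelled BY273 and 0.103 in those labelled N2. Summed over the cuticle collagens tested, a level of 14789 CPM in replicate 1 of the BY273 label stood beside 10369 and 9465 CPM in replicates 2 and 3 and 9729 to 10281 CPM under the N2 label.

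How far the strains differ in old animals on krill oil was not settled, since the day 6 labels conflict with the marker genes. Between the labels a short list of genes differed, and its length depended on the fit, as given with the processing alternatives. At a log2 fold change above 1 and an adjusted p under 0.05 by edgeR (a differentially expressed gene, DEG), 93 of 15018 genes tested differed (0.619%), 25 higher (0.166%) and 68 lower (0.453%) in the libraries labelled BY273. At any fold change 179 were called (1.19%), 50 higher (0.333%) and 129 lower (0.859%), and 1530 had an unadjusted p under 0.05. Over the genes tested the log2 fold change had a median of 0.01. Of the genes tested, 15.7% had no overlap between the labels, and all 179 called genes were among them. The DEGs were mostly of low level, and 11 of the 25 higher and 51 of the 68 lower had a mean under 5 CPM.

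In the other strain comparisons there were 177 DEGs on krill oil at day 1 (1.31% of genes tested), 580 at day 3 (3.96%), and in controls 348 at day 1 (2.47%), 833 at day 3 (5.78%) and 3633 at day 6 (24.8%). Such counts also depend on the spread between replicates. The median SD of a gene was 0.173 log2 CPM under the BY273 label on krill oil at day 6 and 0.080 to 0.134 in the other groups. The part of this spread in the counts was not tested. Without N2 krill oil replicate 1, 2 or 3 there were 12, 15 and 16 DEGs higher and 35, 44 and 47 lower. Without BY273 replicate 1, 2 or 3 there were 24, 20 and 30 higher and 83, 55 and 63 lower. Of the 179 called genes, 58 were called in each of these 6 fits, and 29 of the 58 were among the strain-marker genes.

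**Figure D3:**
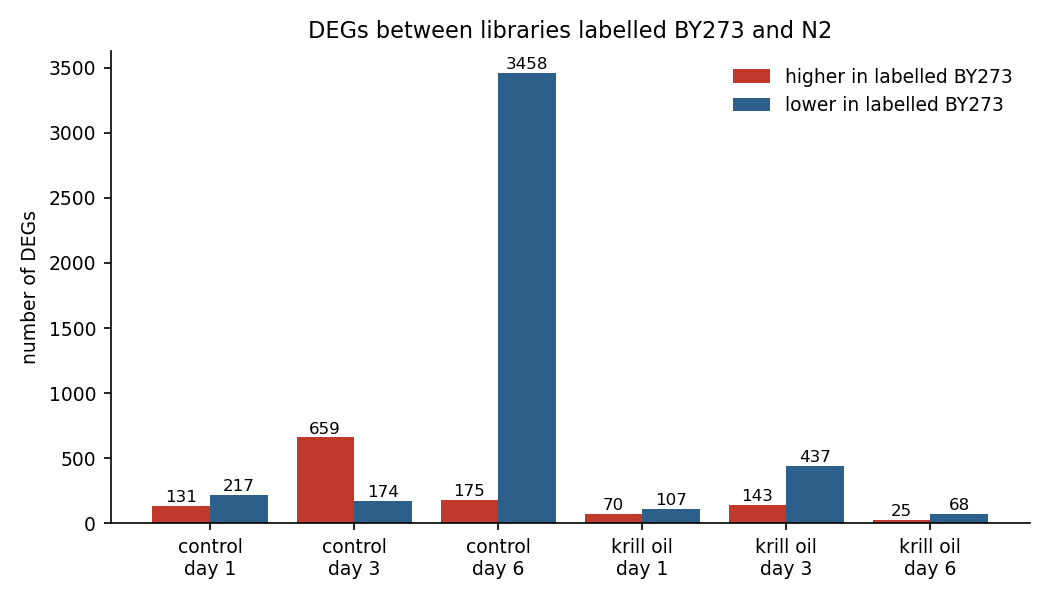
Number of DEGs between libraries labelled BY273 and N2 in each of the 6 settings of diet and day (3 against 3 libraries each; bars start at 0). Krill oil at day 6 has 25 higher and 68 lower, against 175 and 3458 in controls of the same age.

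Among the 24 DEGs named by rule (at least 5 CPM, no overlap, largest rise or fall), the genes higher under the BY273 label were led by hmg-20 (log2 fold change 2.23 ± 0.11, adjusted p = 9.29e-06). C32H11.4, a gene for a CUB-like domain protein, stood at 23.7, 21.1 and 14.6 CPM against 2.97, 5.67 and 5.12 CPM under the N2 label, a log2 fold change of 2.11 ± 0.24. dod-24, of the same protein class and named as a gene downstream of daf-16, stood at 36.4, 30.7 and 28.5 CPM against 9.18, 11.4 and 11.7 CPM. The lowest library labelled BY273 was thus well above the highest labelled N2 for both. F55G11.6 lies beside them on chromosome IV and had 5.89 to 10.5 CPM against 1.68 to 2.40 CPM. pgp-6, an ABC transporter of the P-glycoprotein family, had 13.1 to 20.7 CPM against 4.88 to 5.79 CPM, and dec-7, a gene of the defecation rhythm, had 16.4 ± 2.05 CPM (SD, n = 3) against 6.72 ± 0.392 CPM. The C-type lectin clec-47 had 14.3 ± 3.29 CPM against 5.66 ± 0.250 CPM. These calls held in each fit without 1 library, as did that of the collagen gene col-135 (30.3 ± 10.2 against 8.72 ± 2.31 CPM).

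The remaining genes of this direction were less firm. pud-3 and pud-4, neighbours on chromosome V that were named for proteins raised in daf-2 mutants, had 56.7 ± 19.9 and 33.8 ± 9.40 CPM (SD, n = 3) under the BY273 label and 19.5 ± 6.71 and 13.6 ± 4.98 CPM under the N2 label. Their log2 fold changes were 1.54 and 1.32 (adjusted p = 0.0234 and 0.0349), and the library BY273 replicate 1 was highest for both. Without N2 replicate 1 or 3 the adjusted p of pud-3 was at most 0.089, and that of pud-4 reached 0.151 without 1 library. The calls of drd-10, a gene lowered by dietary restriction (14.6 ± 5.79 against 5.30 ± 1.35 CPM), and of ddn-1 (9.23 ± 2.89 against 4.02 ± 0.735 CPM) were each lost in 4 of the 6 fits without 1 library, with adjusted p up to 0.163 and 0.175.

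The genes lower under the BY273 label were led by the strain markers C27D8.3, C27D8.2 (1.24 ± 0.567 against 8.91 ± 0.470 CPM) and B0511.11. C27D8.2 overlaps C27D8.3, and the strand setting of the counting is not given in the sources used here, so that reads of the 2 genes may be shared. dyf-3, needed to build sensory cilia, stood at 2.65, 2.54 and 2.85 CPM against 9.79, 8.51 and 9.84 CPM, a log2 fold change of -1.80 ± 0.14 (adjusted p = 0.000234). aex-3, an exchange factor for the synaptic vesicle GTPase RAB-3, stood at 10.9, 9.25 and 8.86 CPM against 22.5, 25.1 and 26.8 CPM (-1.35 ± 0.12, adjusted p = 0.000602). In both genes the 3 libraries labelled N2 were more than double every library labelled BY273. Both had been higher under the BY273 label at day 1 and 3, by 1.76 and 2.13 for dyf-3 and by 1.37 and 1.72 for aex-3 on krill oil. C55C3.3, srlf-3, F14H12.3 and the kinase gene kin-35 were lower by log2 fold changes of -1.28 to -1.46, and these calls held in each fit without 1 library. The collagen genes col-41 (12.3 ± 4.93 against 33.5 ± 5.61 CPM) and col-90 (13.7 ± 5.09 against 34.7 ± 1.83 CPM) and T12D8.5 (7.19 ± 2.25 against 18.1 ± 2.25 CPM) were lower as well. Their calls were lost without at least 1 library labelled N2, with adjusted p up to 0.13, 0.0887 and 0.0564, and each overlaps another gene (ucr-2.2, let-754 and taf-9).

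**Figure D4:**
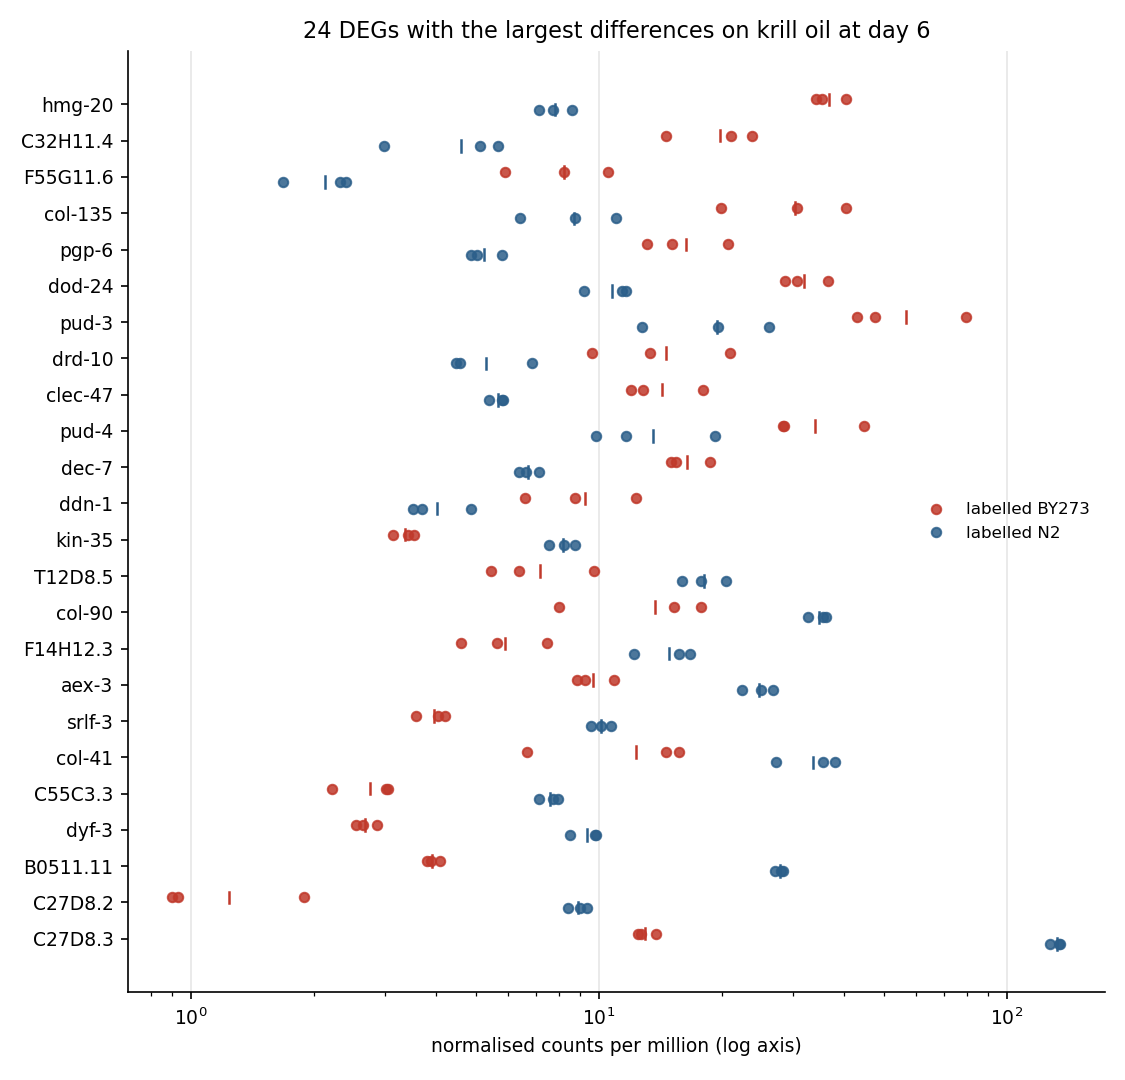
Normalised counts (CPM), on a log axis, of the 24 named DEGs in the 6 libraries of krill oil at day 6; points are libraries, red labelled BY273 and blue labelled N2, and short lines are means of 3. From hmg-20 to ddn-1 all red points lie right of the blue ones, and from kin-35 to C27D8.3 all lie left of them.

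Several called genes lay next to each other. Chromosome V held 64 of the 179 called genes (2.19% of its 2916 genes tested), chromosome IV 33 (1.32%), III 25 (1.06%), I 23 (0.945%), X 19 (0.899%) and II 15 (0.568%). The 1-Mb stretch with most calls was 12 to 13 Mb on chromosome IV, with 13 of 174 genes tested (7.47%). A run within it, from 12706700 (C27D8.3) to the start of T23F6.3 at 12723075, held C27D8.3, C27D8.2, C27D8.1, idpp-7, T23F6.2 and T23F6.3, all lower under the BY273 label, with log2 fold changes of -1.28 to -3.34, and C27D8.1 and T23F6.2 were called in 1 and idpp-7 in 4 of the 6 fits without 1 library. A second run, from the start of C32H11.3 at 12918556 to F55G11.6 at 12958030, held C32H11.3, C32H11.4, dod-24 and F55G11.6, all higher, by 1.16 to 2.11, of which C32H11.3 was called in 0 of the 6 fits. The genes of the first run had positive log2 fold changes in every younger comparison in which they were tested. Those of the second did not: C32H11.4 had log2 fold changes of -0.52 and -0.57 in controls and -0.28 and -1.49 on krill oil at day 1 and 3, and dod-24 was at 0.47 and -0.19 in controls and 0.19 and -0.91 on krill oil.

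A pair of smaller groups of neighbours was called as well. On chromosome I the neighbours tag-344, the F-box gene fbxa-125 and B0511.11 (from 10644245 to the start of B0511.11 at 10648600) had log2 fold changes of -2.11, -1.98 and -2.83, with adjusted p of fbxa-125 up to 0.0896 without 1 library. On chromosome X ZK899.5 and ZK899.6 differed in opposite directions, ZK899.5 with 2.44 to 3.49 CPM against 0.442 to 0.648 CPM and ZK899.6 with 0, 0 and 3 counts against 30, 37 and 52. saeg-2, the gene beside T23G5.11 on its other side from dat-1, was lower with 8.25 ± 1.28 against 15.4 ± 0.125 CPM (-0.90 ± 0.13, adjusted p = 0.00785). cls-3, a microtubule-binding CLASP protein on the same chromosome, was lower with 34.5 ± 1.02 against 82.1 ± 4.28 CPM (-1.25 ± 0.07, adjusted p = 2.35e-05).

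Of the dopamine genes, 17 were tested, and 2 passed adjusted p under 0.05, 1 in each direction, against 1.19% of all genes. cat-4 stood at 65.8, 62.2 and 59.99 CPM under the BY273 label and at 39.2, 38.5 and 41.2 CPM under the N2 label, a log2 fold change of 0.67 ± 0.07 (adjusted p = 0.00171). All 3 libraries labelled BY273 were above all labelled N2, and the call held in each fit without 1 library. cat-4 overlaps vps-54, and it also serves serotonin synthesis. ceh-43, a homeodomain regulator of dopaminergic identity, stood at 12.7, 12.9 and 13.2 CPM against 17.9, 18.7 and 18.1 CPM (-0.49 ± 0.09, adjusted p = 0.037), and its call was lost in 5 of the 6 fits without 1 library, with adjusted p up to 0.198. The other regulators of these neurons had no overlap between the labels, as had 15.7% of all genes tested, and did not pass. ceh-20 was at 16.5 to 18.9 CPM against 21.6 to 24.8 CPM (adjusted p = 0.141), and ast-1 at 1.44 to 2.14 CPM against 0.876 to 1.07 CPM (adjusted p = 0.151).

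The genes that make, load and take up dopamine were low in these whole-worm libraries. dat-1 stood at 1.23, 0.803 and 0.639 CPM under the BY273 label and 1.41, 1.05 and 1.40 CPM under the N2 label, with a log2 fold change of -0.53 ± 0.28 (adjusted p = 0.588). The labels overlapped. In controls dat-1 was called by edgeR at day 3 (0.91, adjusted p = 0.0173) and at day 6 (-1.72, adjusted p = 3.91e-06), in the directions of T23G5.11. In these comparisons 38.7% and 81.5% of all genes tested were called. Of 19 dopamine genes tested in controls at day 6, 15 were called lower, so that dat-1 was not set apart there. Fewer neurons, less RNA per neuron and the conflict of the day 6 labels could not be told apart in such samples. cat-2 had 3, 8 and 10 counts against 3, 7 and 12 counts and was too low to be tested. bas-1 was at 7.63 ± 1.00 CPM against 6.84 ± 0.450 CPM (adjusted p = 0.798) and cat-1 at 0.514 to 0.639 CPM against 0.485 to 0.838 CPM. The cofactor genes ptps-1 and qdpr-1 had log2 fold changes of 0.00 and -0.10. The receptors dop-1 to dop-5 had log2 fold changes between -0.31 and 0.22, and the channels trp-4 and asic-1 of -0.53 and -0.52, with adjusted p of 0.416 to 0.981 over these 7 genes. The list as a whole had a median of -0.10, beside 0.01 over all genes.

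**Figure D5:**
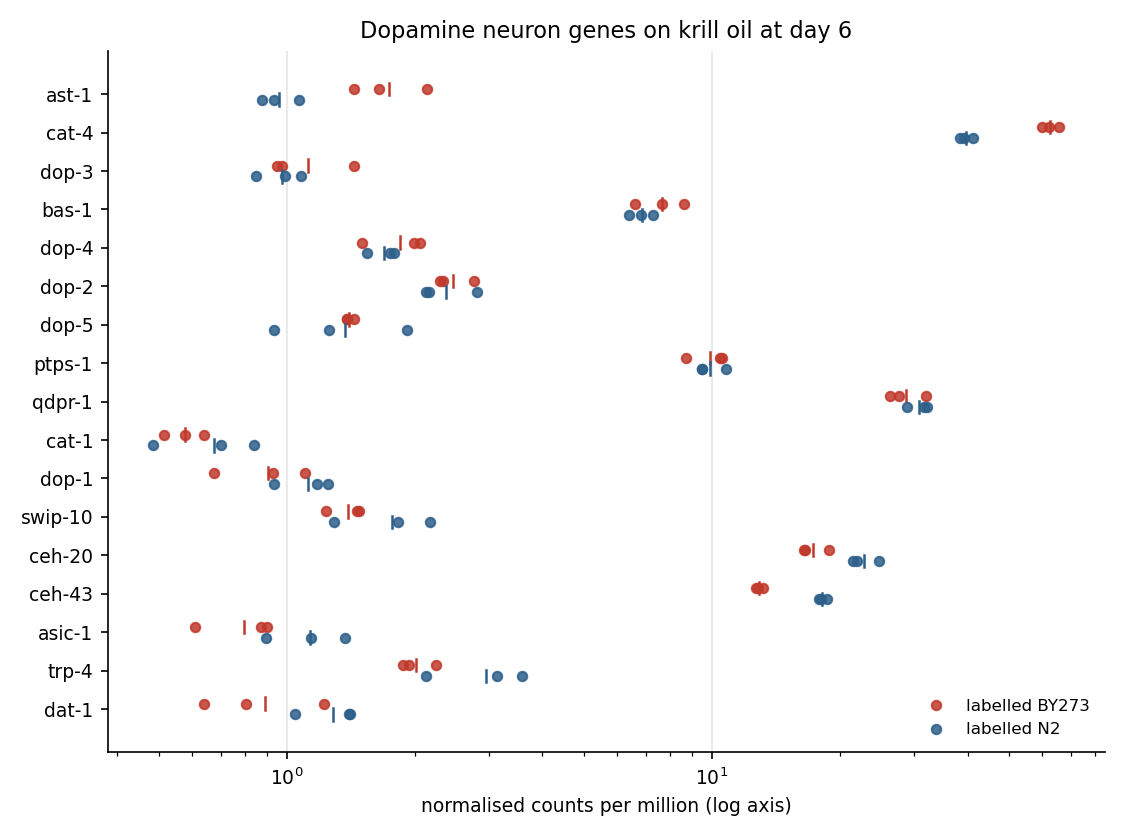
Normalised counts (CPM), on a log axis, of the 17 dopamine neuron genes tested, in the 6 libraries of krill oil at day 6; points are libraries, red labelled BY273 and blue labelled N2, and short lines are means of 3. Only cat-4 and ceh-43 passed adjusted p under 0.05, and dat-1 overlaps between the labels.

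Of the other neuronal lists, cilium assembly (4.44%), chemoreceptors (5.13%) and synaptic transmission (1.64%) held called genes, beside 1.19% of all genes. None of 123 neuropeptide genes was called (10 had an unadjusted p under 0.05, median log2 fold change 0.00), and none of 18 genes of other biogenic amines (1 at an unadjusted p under 0.05). DESeq2 called 1 and 0 of these. Of 61 genes of synaptic transmission 1 was called, aex-3, with a list median of -0.08. Of 45 genes of cilium assembly dyf-3 was called lower and che-10, a rootletin needed for ciliary structure, higher (46.3 ± 5.99 against 32.9 ± 1.06 CPM), the latter with adjusted p up to 0.255 without 1 library. Among 39 chemoreceptor genes that could be tested, srt-42 and sri-36 were lower with 0.386 ± 0.217 against 1.54 ± 0.130 CPM and 0.548 ± 0.0858 against 1.53 ± 0.258 CPM, and both calls were lost without 1 library (adjusted p up to 0.103 and 0.116). pdfr-1, the receptor of the PDF neuropeptides, was in no list and was lower as well (7.65 ± 0.126 against 13.5 ± 0.745 CPM, -0.82 ± 0.11). It is named here after its value was seen, and it was among the strain-marker genes. None of 16 orthologs of human PD genes was called by edgeR or DESeq2, and 1 had an unadjusted p under 0.05 by edgeR.

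Among other tissues most lists held no called gene. Over all genes tested 1.19% were called, so that 0 calls in lists of these sizes say little about a tissue. By edgeR 1530 of all 15018 genes tested had an unadjusted p under 0.05. None was called among 34 of oocyte and eggshell, 35 of germline proliferation and meiosis, 6 vitellogenins, 38 of body wall muscle, 32 of the pharynx, 81 cytosolic ribosomal proteins, 33 of the proteasome or 20 of the vacuolar ATPase, where edgeR gave unadjusted p under 0.05 for 1, 0, 2, 6, 2, 0, 0 and 0 genes. DESeq2 called 2 vitellogenins and 1 muscle gene higher and none in the other lists just named. Nor was any called among 19 embryo genes, 49 histones, 12 mitochondrially encoded proteins and 32 genes of propionate and one-carbon metabolism, by either tool, where 3, 8, 2 and 6 had an unadjusted p under 0.05. Vitellogenins summed to 76162 to 80782 CPM under the BY273 label and 71662 to 80929 CPM under the N2 label. Of 71 sperm genes tested 1 was called (1.41%). This was spe-15, an unconventional myosin, which was lower (10.5 ± 1.17 against 16.3 ± 0.820 CPM, -0.64), with adjusted p up to 0.189 without 1 library. None of 3 male genes tested was called by either tool (1 at an unadjusted p under 0.05), and the male list summed to 1.95 to 3.48 CPM against 3.21 to 3.96 CPM.

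Cuticle and defence genes held calls in both directions. Called were 1.33% of molting genes, 3.4% of cuticle collagens and 6.6% of C-type lectins. Of lysozymes, saposin-like proteins and antimicrobial peptides 3.85% were called, beside 1.19% of all genes. By edgeR 1530 of all 15018 genes tested had an unadjusted p under 0.05. Of 75 molting genes pan-1, a leucine-rich repeat protein, was lower (29.4 ± 4.81 against 46.1 ± 2.33 CPM, -0.64), with adjusted p up to 0.136 without 1 library. Of 147 cuticle collagens, col-135 and dpy-17 were higher and col-41, col-90 and col-95 lower, while 36 had an unadjusted p under 0.05 and the median was 0.04. dpy-17 was at 36.1 ± 6.39 against 19.1 ± 4.15 CPM and col-95 at 226.8 ± 20.9 against 313.6 ± 19.2 CPM, and both calls were lost without at least 1 library. Of 106 C-type lectins 3 were higher, clec-47, clec-223 (30.9 ± 1.46 against 17.1 ± 1.25 CPM) and clec-60 (3.59 ± 0.256 against 1.46 ± 0.185 CPM). Lower were clec-258 (0.181 ± 0.0381 against 1.48 ± 0.351 CPM), clec-41 (109.6 ± 15.5 against 187.7 ± 13.5 CPM), clec-145 and clec-65, of which clec-65 was called in 1 of the 6 fits without 1 library. Of 78 genes of lysozymes, saposin-like proteins and antimicrobial peptides 3 were lower and 0 higher. spp-9 stood at 51.6, 62.7 and 57.6 CPM under the BY273 label against 158.3, 99.9 and 110.7 CPM, spp-17 at 32.7, 21.8 and 23.4 CPM against 47.7, 72.0 and 50.2 CPM, and abf-5 at 2.60 ± 0.190 against 5.30 ± 0.357 CPM. Their log2 fold changes were -1.097, -1.12 and -1.02. Without 1 library the adjusted p reached 0.0633 for spp-17 and 0.0653 for abf-5.

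Lipid genes gave calls in lists of synthesis, breakdown and binding, with 8.7%, 1.28% and 6.25% called beside 1.19% of all genes. Of 23 genes of lipid synthesis and desaturation, fat-7, a stearoyl-CoA desaturase, was lower with 2.77, 2.12 and 1.84 CPM against 3.96, 4.29 and 5.49 CPM (-1.03 ± 0.20, adjusted p = 0.0409). fat-2, the Δ12 desaturase that starts the synthesis of polyunsaturated fatty acids, was at 228.1, 227.0 and 258.6 CPM against 307.2, 293.2 and 301.6 CPM (-0.33 ± 0.07, adjusted p = 0.0448). The labels did not overlap for either gene, yet both calls were lost in 5 of the 6 fits without 1 library (adjusted p up to 0.192 and 0.276). Of 78 genes of lipid breakdown only the lipase lips-6 was called (13.8 ± 3.67 against 6.11 ± 0.233 CPM), and of 16 lipid-binding genes only far-6 (82.2 ± 3.72 against 114 ± 4.21 CPM, -0.47). The calls of both were lost in 2 or more of the fits without 1 library.

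Of the stress and detoxification lists, 10.5% of heat shock genes and 1.74% of detoxification genes were called, and of the other lists given next 6.25% of transthyretin-related genes, 10.5% of gut proteases, 3.23% of pals and 0.339% of F-box genes, beside 1.19% of all genes. Of 19 heat shock genes, hsp-16.2 (4.16 ± 0.470 against 7.61 ± 0.370 CPM) and hsp-70 (8.47 ± 1.54 against 16.6 ± 1.53 CPM) were lower, by -0.87 and -0.97, with adjusted p up to 0.0964 and 0.0712 without 1 library. None of 29 oxidative stress genes was called by edgeR or DESeq2, and edgeR gave 3 of them an unadjusted p under 0.05. Of 172 detoxification genes pgp-6 and the cytochrome P450 cyp-14A3 (5.25 ± 0.682 against 1.70 ± 0.248 CPM) were higher and cyp-33C8 was lower. Transthyretin-related ttr-23, ttr-6 and ttr-29 were lower, by -1.17, -0.49 and -1.08, of 48 tested. The gut proteases cpr-2 and cpr-9, cathepsin B-like enzymes, were lower of 19 tested, by -2.34 and -0.42. Of 31 pals and intracellular pathogen response genes only skr-5 was called (-1.003), and of 295 F-box and MATH-BTB genes only fbxa-125. None of 177 nuclear hormone receptors and none of 35 nuclear respiratory chain genes was called by edgeR (12 and 4 at an unadjusted p under 0.05), and DESeq2 called 1 and 0. The ttr, cpr, cyp-33C8 and skr-5 calls were each lost in at least 2 of the fits without 1 library. A pair of haem genes not in any list and seen after their values were known were higher: hrg-7, a secreted haem signal of the intestine that overlaps C15C8.7 (133.4 ± 15.8 against 60.4 ± 1.81 CPM), and the haem transporter hrg-1 (12.8 ± 1.12 against 7.80 ± 0.415 CPM), called in 6 and 3 of the 6 fits without 1 library.

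Over all genes tested edgeR called 1.19%. None of the 18 genes that the study followed up by name and that could be tested was called by edgeR or DESeq2. By edgeR 1 of these 18 had an unadjusted p under 0.05. Among them skn-1 stood at 236.3 ± 15.9 against 236.9 ± 8.92 CPM, hmg-5 at 51.8 ± 3.73 against 55.9 ± 3.89 CPM, lmd-3 at 271.7 ± 26.8 against 263.7 ± 4.39 CPM and jnk-1 at 2.43 ± 0.188 against 2.27 ± 0.335 CPM. The smallest adjusted p was 0.188, for nhr-6 (3.40 to 3.98 against 4.67 to 5.71 CPM).

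The called genes were next set against the other 5 strain comparisons, which share no libraries with this one. Of the 179, 70 were called in the opposite direction and 5 in the same in controls at day 1, 116 and 10 in controls at day 3, 69 and 5 on krill oil at day 1, and 106 and 3 on krill oil at day 3. In controls at day 6, 125 were called in the same direction and 30 in the opposite. As shares of the genes called there, the opposite calls were 7.24%, 2.08%, 14.4% and 5.29% of those in the 4 younger comparisons, and the same calls 1.05% of the 11920 called in controls at day 6, where 81.5% of all genes passed. In the younger comparisons 6.87%, 38.7%, 3.57% and 13.7% of genes tested were called. By their younger calls 44 of the 179 were opposite in all 4, 92 opposite in 1 to 3, 11 the same in at least 1, 4 mixed and 28 called in none.

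Whether the strain difference depended on krill oil at day 6 was tested as an interaction over the 12 libraries of that age. It differed for 3613 of 15774 genes by the thresholds of a DEG (22.9%), and was more positive on krill oil for 3448 of them. At any size 9399 were called (59.6%), beside 3458 DEGs lower under the BY273 label in controls alone. Of the 179 genes called on krill oil 101 were called for the interaction. hmg-20, C27D8.3, B0511.11 and dyf-3 had interactions of 0.09, -0.08, -0.23 and 0.14 log2, with adjusted p of 0.572, 0.423, 0.150 and 0.473. pud-3 and pud-4 were higher under the BY273 label on krill oil and lower in controls (-2.72 and -1.65). So were clec-60 (1.30 against -2.05) and dpy-17 (0.92 against -2.84). spp-9 had the reverse pattern, with -1.097 on krill oil and 3.61 in controls, and col-95 with -0.46 and 1.43. col-41 and col-90 were lower on both diets, by -1.43 and -1.33 on krill oil and by -5.05 and -4.28 in controls. The conflict between strain labels and marker genes was present on both diets at day 6, and its part in the interaction was not tested.

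Over the 18 libraries with krill oil, the strain difference changed from day 1 to day 6 for 526 genes (3.34% of 15738) and from day 3 to day 6 for 1005 (6.39%), by the thresholds of a DEG. The first were 249 positive and 277 negative, the second 584 and 421. At any size 8.06% and 13.9% of genes were called for these changes, and of the 179 genes called at day 6 143 and 161 were. The day 6 libraries entered both the choice of the 179 and this test. These interactions compare libraries whose marker genes go with their labels with libraries whose marker genes go against them. C27D8.3 changed by -6.60 and -6.47 log2, B0511.11 by -5.77 and -5.48, and hmg-20 by 4.06 and 4.56.

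A small group of genes was called in this comparison alone. Of the 28 called in no younger comparison, 12 were called in the same direction in controls at day 6, and 8 were called in none of the other 5. The 8 were spp-17, D1086.7 (26.5 ± 2.69 against 17.4 ± 0.988 CPM), F55G11.6, hmit-1.2, a myo-inositol cotransporter (5.87 ± 0.420 against 9.51 ± 0.589 CPM), and 4 genes under 2 CPM: srt-42, F07B7.8, R05D8.9 and WBGene00021233. WBGene00021233 had the largest rise of all called genes, with 1.42, 1.19 and 0.864 CPM against 0.114, 0.0373 and 0.147 CPM (3.48 ± 0.43, adjusted p = 0.0036). Of the 8, WBGene00021233 and F55G11.6 were called in each of the 6 fits without 1 library, and F07B7.8 and R05D8.9 in 1. That these were not called elsewhere does not show that they did not differ there, since only some were tested. For D1086.7, hmit-1.2 and spp-17 the interaction with diet was 0.70, -0.74 and -1.06 log2 (adjusted p = 0.000146, 0.000948 and 0.00117).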

How the data were processed

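According to the study's methods, the authors depleted ribosomal RNA from whole worms, aligned read pairs to WBcel235 (release 96) with STAR 2.7.10a and removed duplicates by molecular identifiers. The deposited values of the 36 libraries are raw counts for 46778 genes. For the prediction of biological age the methods name gene counts from STAR after fastp 0.23.2. Whether the deposited counts were made in that way, and their strand setting, are not given in the sources used here. Annotation release 115 gave positions for 46603 genes.

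Low genes were removed with filterByExpr. Libraries were scaled by TMM, and edgeR 4.0.16 in R 4.3.3 gave quasi-likelihood tests on the 6 libraries, adjusted by Benjamini-Hochberg over all genes tested. The SE is the size of the log2 fold change over the square root of F. CPM use TMM factors of the 36 libraries, and log2 CPM a prior count of 2. The tests were tried on simulated data. Interactions used the 12 libraries of day 6 or the 18 with krill oil. P-values measure only the spread between samples labelled as replicates, and the floor of 3 counts covers counting error only.

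Named genes are the top 12 DEGs in each direction by fold, at 5 CPM or more without overlap, the dopamine and study genes, called list members and strain-marker genes. The planned rule for the last (called in 1 direction in all 6 comparisons) found 0 genes, and comparisons at day 1 and 3 took its place after values were seen. Members and lists were chosen with earlier results of these data known. Alternatives were DESeq2 1.42.0, RLE factors, removal of all-zero genes only, fits of 12 or 36 libraries, a replicate block, removal of ribosomal RNA genes and leaving out each library.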

Additional observations from a re-analysis of the deposited data

Results flagged for a closer look

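By the labels, the strain difference at day 6 was not the same with and without krill oil for 3613 of 15774 genes (22.9%). This was by edgeR's interaction test over 12 libraries and the thresholds of a DEG. At any size 59.6% of genes were called, so that such a call did not set a gene apart. All 12 libraries carry the label conflict, and its part in the interaction was not tested. Among the genes named on krill oil that were higher under the BY273 label, the difference (krill oil minus control) was 4.33 log2 for pud-3, 3.03 for pud-4, 2.03 for drd-10, 1.94 for ddn-1, 1.42 for col-135, 1.24 for dod-24, 1.23 for dec-7, 1.18 for pgp-6 and 0.49 for clec-47. Among those lower it was 3.69 for col-41, 3.01 for col-90, 2.41 for C27D8.2 and 1.69 for aex-3, positive because each was lower still in controls.

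With age on krill oil the strain difference by label changed for 526 genes (3.34% of those tested) from day 1 to day 6. From day 3 to day 6 it changed for 1005 genes (6.39%), by the thresholds of a DEG. Under the labels the strain markers changed sign between these ages. C27D8.3 changed by -6.60 and -6.47 log2, B0511.11 by -5.77 and -5.48 and hmg-20 by 4.06 and 4.56. A change with age could not be told apart from the label conflict at day 6. Single libraries were not tested for standing apart, because each group holds 3.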

How the results depend on the processing

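None of the 61 called genes followed through the alternatives changed its direction. The order of 2 counts changed, as given with the replicate block. The median log2 fold change over genes tested went from 0.0104 to -0.0065 by DESeq2 and -0.0163 with only all-zero genes removed. Changes of sign were not recorded for genes not called or for list medians. For strain on krill oil at day 6, the numbers of DEGs higher and lower, and of genes called higher and lower, were 25, 68, 50 and 129. With only all-zero genes removed they were 70, 114, 265 and 334, in 1 fit of the 12 libraries of day 6 47, 103, 194 and 332, and in 1 fit of all 36 libraries 41, 119, 222 and 366. DESeq2 called 98 higher. Genes called higher made up 27.9% of calls, and 44.2% with only all-zero genes removed. Of the 179 called genes, 173 were called by DESeq2, 162 in the fit of 36 libraries and 179 in that of 12. Without 1 library the 4 numbers ranged over 12 to 30, 35 to 83, 16 to 92 and 45 to 166, lowest in each without N2 replicate 1.

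The replicate numbers did not pair the samples (correlations of deviations -0.07, -0.08 and -0.18 for equal numbers). With the replicate block 31 genes were called higher on krill oil at day 6, DEGs there were 18 higher and 57 lower and on krill oil at day 1 35 higher and 15 lower, so that day 6 no longer had the smaller count, and 57 genes were called in 1 direction at day 1 and 3.

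With only all-zero genes removed, the change of the strain difference from day 1 to day 6 was positive for 558 DEGs and that from day 3 for 881. Without 1 library the first ranged from 141 to 397. In the fit of 36 libraries, DEGs were 238 higher and 484 lower in controls at day 1, 130 and 295 on krill oil at day 1 and 700 lower on krill oil at day 3. In that fit 268 genes were called in 1 direction at day 1 and 3, and 116 of these were called opposite on krill oil at day 6. DESeq2 gave 299 DEGs higher in controls at day 6.

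Of the called genes named, 61 were followed gene by gene through the alternatives. Each of the 61 was called by DESeq2 and in the fit of 12 libraries, 57 in that of 36, and 30 without N2 replicate 1. Under DESeq2 and the larger fits, other called genes of the text, such as clec-60, hrg-7 and pdfr-1, were counted only among the 179. All day 6 libraries carry the label conflict, so no count at day 6 could be had without doubtful libraries. The dopamine gene cat-2, at 12 counts or fewer in each library, was too low to test.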
